A study of Mus musculus with 6 samples.

Results

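The STAT transcription factors and the JAK kinases that activate them were followed in microglia, the resident macrophages of the brain, purified from mouse cerebellum. The set was chosen by gene symbol and holds 9 genes, Stat2, Stat3, Stat4, Stat5a, Stat5b, Stat6, Jak1, Jak2 and Tyk2, of 23491 gene rows in the deposited counts. All 9 passed the filter on low counts, as did 14727 genes in total. The comparison was between 3 libraries from mice injected intraperitoneally with poly(I:C), a double-stranded RNA analogue that sets off antiviral sensors, and 3 libraries from mice given saline. Both groups were Fmr1 knock out, a genotype that models fragile X syndrome, and no wild-type group was used here. Strain, age, dose and the time between injection and collection were not given in the labels. The cell preparation used CD11b microbeads, and CD11b is also present on monocytes, neutrophils and other macrophages. Whether each library came from its own animal is not given, so p-values speak to the spread between libraries, which may be technical.

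JAK kinases are tyrosine kinases that sit on the inner tails of cytokine receptors. When a cytokine joins its receptor chains, the JAKs phosphorylate the receptor and then a STAT protein, which pairs through its SH2 domain, enters the nucleus and binds DNA. Each receptor uses a preferred set of kinases and STATs, and several inhibitors of the pathway are themselves STAT targets. STAT2 is the member specialised for interferons: it joins IRF9 and a further STAT in a complex that binds interferon-stimulated response elements. In brain macrophages the pathway relays interferons, interleukin-6 and interleukin-10, granulocyte-macrophage colony-stimulating factor, and interleukin-4 and interleukin-13. Its activity is set largely by phosphorylation, which read counts do not measure.

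The libraries held between 33710545 and 34899835 counts, and 3 counts corresponded to at most 0.0912 CPM (the depth-scaled count rate of edgeR, after TMM scaling), a limit that covers counting error only. Microglial markers were abundant in every library: the 11 markers with a row summed to between 31116 and 42928 CPM with poly(I:C) and between 39438 and 45567 CPM with saline. The neutrophil markers summed to 1817 to 3318 CPM with poly(I:C) and to 22258, 3794 and 3802 CPM with saline, with saline replicate 1 the highest and every poly(I:C) sum below every saline sum. All 12 of these markers had a log2 difference below 0, where 48.9% of all tested genes did. Their median was −2.64, and none was called, where 0.957% of all tested genes were. Csf3r, singled out after its values were seen, differed least, at 945 to 1315 CPM with poly(I:C) and 1291 to 1359 CPM with saline, and made up most of the sums of poly(I:C) replicates 2 and 3. The choroid plexus markers summed to 19587, 7786 and 9451 CPM with poly(I:C) and to 4042 to 8602 CPM with saline, so poly(I:C) replicate 1 stood apart, and it also had the lowest microglial sum. Reads over Fmr1 were present in all libraries, with 1484 to 2205 counts in poly(I:C) and 1243 to 1375 in saline. Without a wild-type group, and with the disrupted part of the gene not given, these reads check neither genotype nor labels.

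The promoter of Stat2 is shown because Stat2 was the member that rose, and the second annotated promoter of Stat4 because it was the only other member window with the same motif. Both are RefSeq windows of build GRCm38.p6 on the plus strand, which run from 250 bases before an annotated start to 50 bases after it. Capitals mark a match to the interferon-stimulated response element, searched on both strands as a pair of GAAA runs with any 2 bases between them.
Stat2, chr10:128270248-128270547: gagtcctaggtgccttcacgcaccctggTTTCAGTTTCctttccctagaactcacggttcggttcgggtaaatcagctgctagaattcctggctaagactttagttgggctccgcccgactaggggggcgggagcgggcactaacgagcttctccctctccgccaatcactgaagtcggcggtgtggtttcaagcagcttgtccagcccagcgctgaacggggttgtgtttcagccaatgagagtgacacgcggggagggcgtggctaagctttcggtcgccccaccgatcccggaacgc
Stat4, chr1:52007990-52008289: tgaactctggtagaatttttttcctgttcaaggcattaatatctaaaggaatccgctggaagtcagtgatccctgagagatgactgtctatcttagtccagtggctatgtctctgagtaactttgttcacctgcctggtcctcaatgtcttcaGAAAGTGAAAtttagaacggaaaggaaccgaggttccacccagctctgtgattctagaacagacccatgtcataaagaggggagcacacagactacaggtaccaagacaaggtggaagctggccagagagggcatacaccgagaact
The Stat2 match lies on the minus strand, at positions −222 to −213 relative to the annotated start. The Stat4 match lies on the plus strand, at positions −97 to −88 relative to its own start. All 9 members matched the promoter table, with 12 windows between them, and 2 of the 12 held the element. Of all 32851 windows of this length, 3.44% held it. The gamma-activated site, searched as TTCNNNGAA, which reads the same on both strands, was found in 0 of the 12 member windows and in 8.3% of all windows. A match describes these letters and does not show that a factor binds there, and no match says nothing about the factor.

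Stat2 rose with poly(I:C), and in edgeR it was the only one of the 9 members called in either direction. It had 258, 196 and 212 CPM in the poly(I:C) libraries, against 67.2, 66.4 and 67.2 CPM in the saline libraries. Every poly(I:C) library lay above every saline library, and the saline libraries were close to each other. The means were 222 ± 32.3 CPM with poly(I:C) and 67.0 ± 0.48 CPM with saline (SD, n = 3 each). Stat2 was 3.32-fold higher, with a 95% interval of 2.75-fold to 4.01-fold (log2 fold change 1.73, SE 0.11, adjusted p = 0.00108 by the Benjamini-Hochberg method over all tested genes, quasi-likelihood test of edgeR). Thus 1 of 9 members was called higher, where 0.883% of all tested genes were, and 0 of 9 were called lower, where 0.0747% were; in either direction the background was 0.957%. Of the 9, 5 had groups that did not overlap, where 28.4% of all tested genes did, and 6 had a log2 difference below 0, where 48.9% did.

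By size of change Stat2 stood in the middle of the genes that rose, at rank 69 of 130, beside a median log2 fold change of 1.77 over those 130 genes. By p-value it ranked 21 of 14727. Its highest library was poly(I:C) replicate 1, the library with the highest choroid plexus sum. Without that library the log2 fold change was 1.63 (adjusted p = 0.00166, edgeR), and without it and saline replicate 1 it was 1.64 (adjusted p = 1.10e-04), so the call did not rest on either library.

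**Figure D1:**
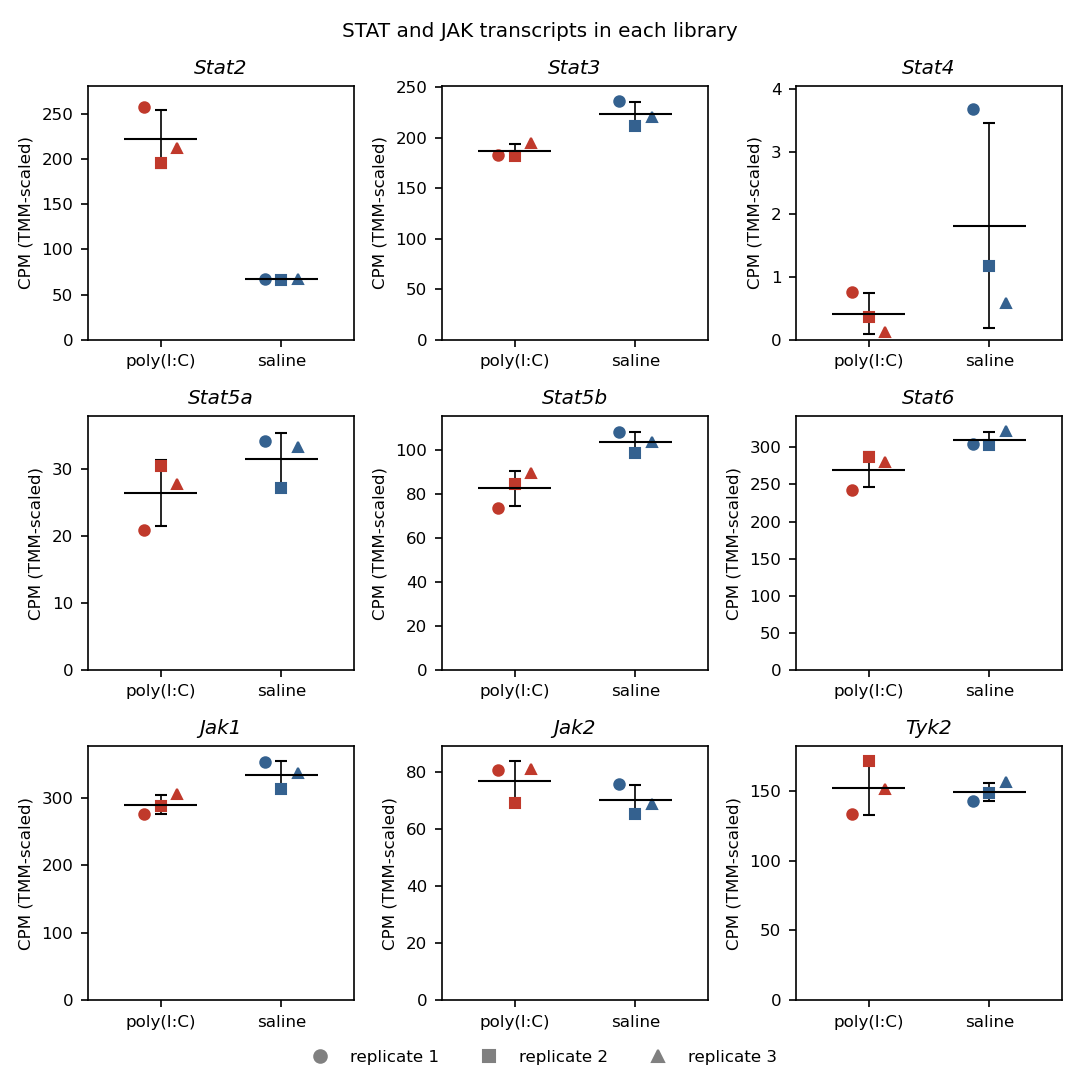
Each panel plots the TMM-scaled CPM of a STAT or JAK gene in the 3 poly(I:C) libraries (red) and the 3 saline libraries (blue), with marker shapes for the replicate number, a line at the mean and bars of 1 SD; the axes start at 0 and differ between panels. Stat2 lies between 196 and 258 CPM with poly(I:C) and at 66.4 to 67.2 CPM with saline, while Stat3, Stat5b, Stat6 and Jak1 are a little lower in every poly(I:C) library and Stat4 is highest in saline replicate 1.

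IRF9, the DNA-binding partner of STAT2, is encoded by a gene that rose as well. Irf9 had 6903, 6726 and 6834 counts with poly(I:C) and 3125, 2823 and 3041 counts with saline. It averaged 197 ± 1.44 CPM with poly(I:C) and 88.7 ± 6.82 CPM with saline (SD, n = 3 each), 2.22-fold higher (log2 1.15, SE 0.08, adjusted p = 0.00145, edgeR). Irf9 was the only called gene among 14 coactivators and partners of STATs, where 0.957% of all tested genes were called. It is also counted in the list of STAT2 complex targets described below. The partner list had a median log2 difference of −0.03, against 0.01 over all tested genes. Nmi, which encodes a protein that binds STATs, was 1.72-fold higher and missed the threshold (adjusted p = 0.0703), with the groups apart. Grb2, an adaptor that links receptors to Ras, had 194 ± 7.62 CPM with poly(I:C) and 236 ± 6.14 CPM with saline (adjusted p = 0.140). The general coactivators Crebbp and Ep300, picked once their values had been seen, had log2 differences of −0.18 and −0.21 and were not called.

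By the shape of their values over the 6 libraries, the genes most like Stat2 among 10671 candidates with a mean of at least 5 CPM were Oasl1, Ms4a6d and Gbp9, with Pearson correlations of 0.9995, 0.9987 and 0.9985 in log2 CPM. The correlation describes these 6 libraries, which share the treatment split, and 267 of the candidates exceeded 0.95. Gbp9, a guanylate-binding protein gene, also had a fold change of nearly the same size as Stat2, at 3.41-fold higher (adjusted p = 0.00108). Oasl1, an oligoadenylate synthetase-like gene, was 11.0-fold higher and Ms4a6d, a membrane protein gene, was 1.88-fold higher.

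Stat3 relays interleukin-6 and interleukin-10, and it was not called. It had 183, 182 and 194 CPM with poly(I:C) and 236, 212 and 220 CPM with saline. All poly(I:C) libraries lay below all saline libraries. The difference was 16.4% of the saline level, with 186 ± 6.89 CPM in poly(I:C) and 223 ± 12.4 CPM in saline (SD, n = 3 each; log2 −0.26, SE 0.08, adjusted p = 0.170, edgeR). DESeq2 called it lower at a log2 fold change of −0.28 (adjusted p = 0.0440), where that method called 566 of 14727 tested genes lower. Over all 15 alternatives the adjusted p ran from 0.0440 to 0.407.

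Stat5a and Stat5b are neighbouring paralogs that relay granulocyte-macrophage colony-stimulating factor, growth hormone and prolactin, and neither was called. Stat5b had 73.7, 84.6 and 89.6 CPM with poly(I:C) and 108, 98.8 and 104 CPM with saline. The groups did not overlap, and the log2 difference was −0.33 (SE 0.09, adjusted p = 0.162, edgeR). Stat5a had 20.9, 30.4 and 27.8 CPM with poly(I:C) and 34.2, 27.1 and 33.2 CPM with saline. Here the groups overlapped, with a log2 difference of −0.26 (SE 0.17, adjusted p = 0.382, edgeR) and a 95% interval of −0.66 to 0.14. The Stat5a difference was −0.091 without poly(I:C) replicate 1, and −0.028 with saline replicate 1 left out as well.

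Close paralogs can share or lose reads in counting, so the pair was also examined as a sum. Summed, Stat5a and Stat5b differed by −0.31 on the log2 scale (SE 0.11, adjusted p = 0.190, edgeR), by −0.19 without poly(I:C) replicate 1, and by −0.15 with saline replicate 1 left out as well. Stat5a made up 22.1%, 26.4% and 23.7% of the summed counts in the poly(I:C) libraries and 24.0%, 21.5% and 24.2% in the saline libraries. The 95% exact binomial intervals reached from 20.7% to 27.8% over the poly(I:C) libraries and from 20.3% to 25.5% over the saline libraries, for counting error only. The mean share was 24.1% ± 2.21 with poly(I:C) and 23.3% ± 1.5 with saline (SD, n = 3 each). The difference of 0.79 percentage points was within the spread of the replicates (two-sided exact permutation test, p = 0.7, where 0.1 is the smallest p that 3 against 3 allows).

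Stat6, which relays interleukin-4 and interleukin-13, was not called. It had 243, 287 and 281 CPM with poly(I:C) and 305, 303 and 322 CPM with saline. The groups did not overlap, and poly(I:C) replicate 1 was the lowest. The log2 difference was −0.20 (SE 0.09, adjusted p = 0.258, edgeR), with a 95% interval of −0.42 to 0.02.

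Stat4 is known chiefly for relaying interleukin-12 in T cells and natural killer cells, and it was nearly absent from these libraries. It had 27, 12 and 4 counts in the poly(I:C) libraries and 121, 41 and 20 counts in the saline libraries, or 0.77, 0.35 and 0.11 CPM with poly(I:C) and 3.68, 1.18 and 0.59 CPM with saline. The groups overlapped, and saline replicate 1 held most of the saline reads. The log2 difference of −2.13 (SE 0.89, 95% interval −4.23 to −0.02) was not called in edgeR (adjusted p = 0.232). Limma-voom with quality weights called it lower at −2.57 (adjusted p = 0.0466), where that method called 1608 of 14727 tested genes lower. Over the 14 alternatives that kept the gene the adjusted p ran from 0.0466 to 0.458. Without saline replicate 1 the log2 difference was −1.13 (adjusted p = 0.458, edgeR), without poly(I:C) replicate 1 it was −2.91 (adjusted p = 0.311), and without both it was −1.88 (adjusted p = 0.228).

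The summed markers of other blood cells were highest in the same saline library. The 14 T and natural killer cell markers summed to 20.6, 23.0 and 26.4 CPM with poly(I:C) and to 52.7, 16.5 and 19.4 CPM with saline. The T cell receptor genes Cd3d, Cd3e and Cd3g had at most 5 counts in any poly(I:C) library and at most 6 in any saline library. The tested genes of this list did not move together, and their median log2 difference was −0.085. Of those singled out after their values were seen, the natural killer and granule gene Nkg7 had 18, 43 and 40 counts with poly(I:C) and 590, 83 and 57 counts with saline. The granzyme gene Gzmb lay the other way, with 77, 126 and 189 counts with poly(I:C) and 87, 25 and 31 counts with saline. The neutrophil and monocyte sums also had their highest value in saline replicate 1, at 22258 and 2722 CPM. None of these lists had a called gene over 12 neutrophil, 9 monocyte and 9 tested T and natural killer cell markers, where 0.957% of all tested genes were called. Their part in the Stat4 values was not tested, and in these bulk libraries fewer cells of a type and less RNA per cell cannot be told apart.

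**Figure D2:**
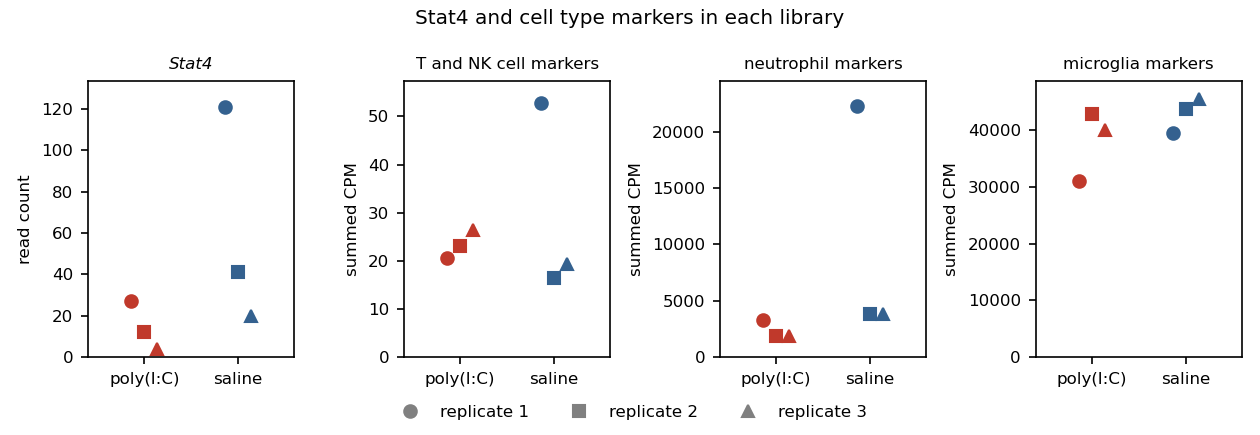
The panels plot the read count of Stat4 and the summed TMM-scaled CPM of the T and natural killer cell, neutrophil and microglia marker lists, in the 3 poly(I:C) libraries (red) and the 3 saline libraries (blue), with marker shapes for the replicate number and axes from 0. Saline replicate 1 is the highest point for Stat4 (121 counts) and for the T and natural killer cell (52.7 CPM) and neutrophil (22258 CPM) sums, but not for microglia.

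None of the 3 JAK kinases was called. Jak1, which serves interferon receptors and those of the interleukin-6 family, had 277, 288 and 306 CPM with poly(I:C) and 354, 313 and 337 CPM with saline. The groups did not overlap, with means of 290 ± 14.5 CPM in poly(I:C) and 335 ± 20.4 CPM in saline (SD, n = 3 each; log2 −0.20, SE 0.09, adjusted p = 0.232, edgeR). Jak2, which serves the interferon gamma and granulocyte-macrophage colony-stimulating factor receptors, had 80.6, 69.0 and 80.9 CPM with poly(I:C) and 75.8, 65.1 and 68.8 CPM with saline. These groups overlapped, and the 95% interval of the ratio of poly(I:C) to saline ran from 0.933 to 1.3.

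Tyk2 pairs with Jak1 on the type I interferon receptor. It had 133, 172 and 151 CPM with poly(I:C) and 143, 149 and 157 CPM with saline. The saline values lay within the range of the poly(I:C) values. The log2 difference was 0.02 (SE 0.11, adjusted p = 0.911, edgeR), and the 95% interval of the ratio of poly(I:C) to saline ran from 0.853 to 1.21. Its sign turned without poly(I:C) replicate 2 (−0.076) and without saline replicate 1 (−0.0090).

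Of the 9 members, 4 (Stat3, Stat5b, Stat6 and Jak1) had every poly(I:C) library below every saline library, where 14.3% of all tested genes did. Stat5a, with a log2 difference of −0.26, was of similar size but its groups overlapped. Under total-count scaling this held for Stat3, Stat5b and Stat6, where 8.99% of all tested genes did, and under upper-quartile scaling for Stat3, Stat5b and Jak1, where 8.90% did. At an unadjusted p under 0.05, 4 of the 9 members were lower (Stat3, Stat4, Stat5b and Jak1), where 10.8% of all tested genes were. Poly(I:C) replicate 1, with the lowest microglial and highest choroid plexus sum, was the lowest library for Stat5a, Stat5b, Stat6, Jak1 and Tyk2. Without it the log2 differences of Stat3, Stat5b, Stat6 and Jak1 were −0.22, −0.23, −0.10 and −0.15. Without it and saline replicate 1 they were −0.18, −0.19, −0.12 and −0.11. The part of cell composition in these differences was not tested.

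**Figure D3:**
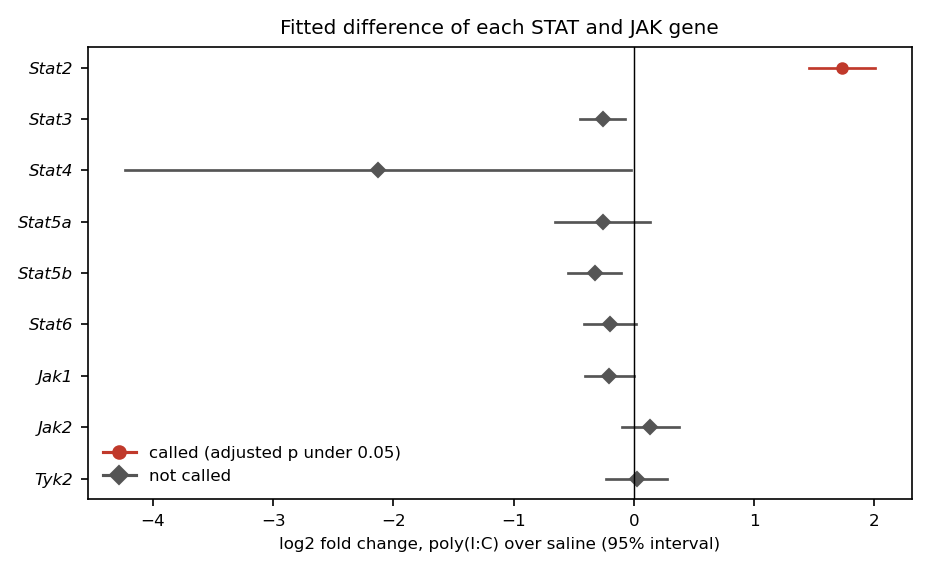
The plot gives the fitted log2 fold change of poly(I:C) over saline for each member with its 95% interval from edgeR; a red circle marks the called gene and grey diamonds the others. Stat2 stands alone at 1.73, the interval of Stat4 is wide (−4.23 to −0.02), and the other 7 lie between −0.33 and 0.14.

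Levels were compared between genes after dividing CPM by exon length, taken from the GENCODE M21 annotation of GRCm38 because the annotation used for counting was not given. Stat6 had the highest level per kilobase in both groups, at 61.3 ± 5.45 CPM per kilobase with poly(I:C) and 70.4 ± 2.35 with saline (SD, n = 3 each). Jak1 followed with 40.2 ± 2.00 CPM per kilobase in poly(I:C) and 46.3 ± 2.83 in saline. Stat2 stood at 37.5 ± 5.45 CPM per kilobase with poly(I:C) and 11.3 ± 0.08 with saline. With poly(I:C) it was therefore the third of the 9 and overlapped Jak1, and with saline it was the seventh, below every library of Jak2.

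Below Stat6, Jak1 and Stat2 with poly(I:C) came Tyk2 and Stat3, which with saline stood above Stat2. Tyk2 had 22.2 ± 2.79 CPM per kilobase with poly(I:C) and 21.8 ± 0.97 with saline. Stat3 had 19.6 ± 0.72 CPM per kilobase with poly(I:C) and 23.4 ± 1.3 with saline. The libraries of this pair overlapped in both groups, so their order is not separated from the spread. Jak2 (15.3 ± 1.35 CPM per kilobase) and Stat5b (14.9 ± 1.47) also overlapped with poly(I:C), but with saline Jak2 (13.9 ± 1.08) was below Stat5b (18.7 ± 0.84) in every library. Stat5a reached 3.69 ± 0.69 CPM per kilobase with poly(I:C) and 4.42 ± 0.54 with saline. Stat4 was the lowest in both groups, at 0.11 ± 0.09 CPM per kilobase with poly(I:C) and 0.47 ± 0.42 with saline. In that annotation 26.7% of the exon bases of Stat4 are shared with a same-strand predicted gene and 8.07% of those of Tyk2 with a gene on the opposite strand, so some of their reads may have been lost or misassigned.

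**Figure D4:**
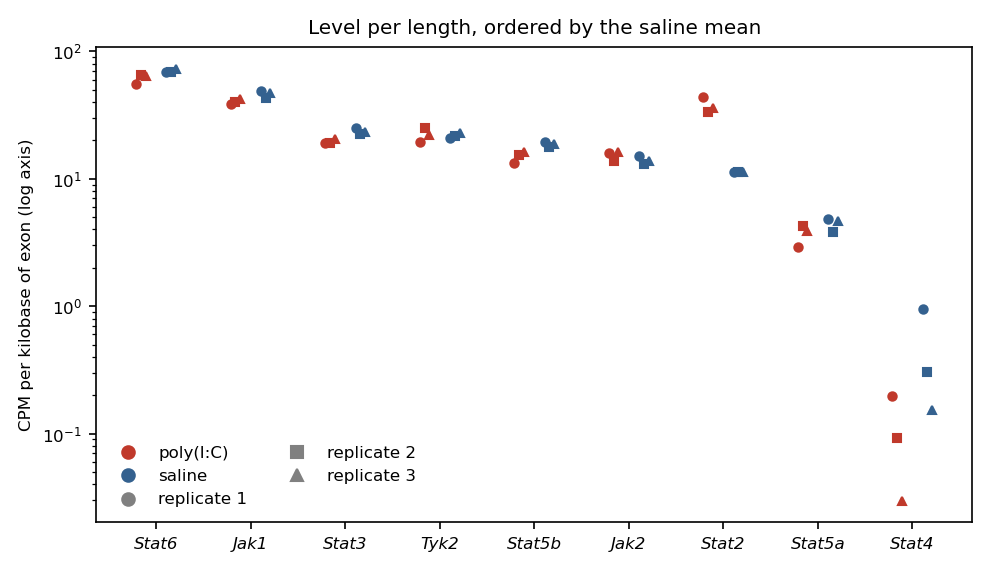
CPM per kilobase of exon is plotted on a log axis for each member, ordered by the saline mean, in poly(I:C) libraries (red, left) and saline libraries (blue, right), with marker shapes for the replicate number. Stat6 and Jak1 lead in saline, Stat2 moves to about the level of Jak1 with poly(I:C), and Stat4 lies lowest, below 1 CPM per kilobase in every library.

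None of the tested ligands that act through these proteins was called, where 0.957% of all tested genes were. Of 22 ligand genes with a row, 11 passed the filter, with a median log2 difference of 0.18. Il12b, a shared subunit of interleukin-12 and interleukin-23, had 51, 44 and 65 counts with poly(I:C) and 10, 5 and 21 with saline (log2 2.10, SE 0.57, adjusted p = 0.152, edgeR). Ebi3, a subunit of interleukin-27, stood at 24.3 ± 6.37 CPM with poly(I:C) and 38.2 ± 5.44 CPM with saline (adjusted p = 0.176). Osm, a cytokine of the interleukin-6 family, stood at 52.4 ± 18.6 CPM with poly(I:C) and 94.7 ± 66.8 CPM with saline, with 5624 of its saline counts in saline replicate 1 (adjusted p = 0.335). Ifnb1, the interferon beta gene, chosen after its values were seen, had 22, 15 and 36 counts with poly(I:C) and 21, 13 and 24 with saline (adjusted p = 0.747).

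Among the receptors, 2 of 29 tested genes rose and 0 fell, where 0.883% and 0.0747% of all tested genes did. The median log2 difference was 0.03. Il15ra, which holds interleukin-15 for presentation to other cells, had 1461, 1326 and 1412 counts with poly(I:C) and 638, 601 and 643 with saline. It averaged 40.4 ± 1.17 CPM with poly(I:C) and 18.6 ± 1.08 CPM with saline (SD, n = 3 each), 2.18-fold higher (log2 1.12, SE 0.09, adjusted p = 0.00281, edgeR). Lifr, which binds leukaemia inhibitory factor and signals with gp130, was 1.51-fold higher at 237 ± 21.5 CPM with poly(I:C) and 158 ± 8.94 CPM with saline, just inside the threshold (adjusted p = 0.0499). Il7r, the interleukin-7 receptor, was 1.26-fold higher without passing (adjusted p = 0.153). The interferon alpha and beta receptor chains Ifnar1 and Ifnar2, picked once their values had been seen, had log2 differences of 0.00 (SE 0.07) and 0.03 (SE 0.13).

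Of 20 inhibitors of the pathway, 1 rose and 0 fell, where 0.883% and 0.0747% of all tested genes did. The median log2 difference was −0.02. Usp18, which removes ISG15 and blocks signalling at the interferon receptor, had 3663, 2537 and 2936 counts with poly(I:C) and 415, 185 and 181 with saline. It was 11.3-fold higher (log2 3.50, SE 0.38, adjusted p = 0.00920, edgeR). Usp18 is also counted in the list of STAT2 complex targets described below. Pias4, a SUMO ligase that restrains STATs, and Cbl, a ubiquitin ligase, had log2 differences of −0.34 and −0.25 (adjusted p = 0.171 and 0.194). The SOCS feedback genes Socs1 and Socs3, chosen after their values were seen, were not called. Socs1 stood at 3.57 ± 0.577 CPM with poly(I:C) and 2.67 ± 0.247 CPM with saline, and Socs3 at 174 ± 10.2 CPM with poly(I:C) and 192 ± 32.8 CPM with saline (adjusted p = 0.351 and 0.539).

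Target genes were taken as lists for each STAT. The lists overlap, other factors also drive their genes, and none was chosen blind to earlier results of these data. In the list for the STAT2 complex, 21 of 24 tested genes rose and 0 fell, where 0.883% and 0.0747% of all tested genes did. The median log2 fold change of the list was 3.06, larger than the 1.73 of Stat2 itself. With both libraries that stood apart left out the count was 24, where 355 of 14763 tested genes were called higher. Leaving out a single library gave 15 to 23, where between 51 and 167 of all tested genes were called higher. Its genes with the smallest p were Xaf1, Rtp4, Bst2, Dhx58, Irf7 and Ifit3b, which rose between 5.45-fold and 20.6-fold. Bst2, which encodes tetherin, a protein that holds budding virus at the cell surface, had 218 ± 26.6 CPM with poly(I:C) and 40.1 ± 5.10 CPM with saline. The interferon-stimulated response element was in a promoter window of 11 of the 20 listed genes with a RefSeq window, beside 3.99% of all genes. The list was drawn up as targets of the complex that binds this element, so a high share was built into the choice. It is not a result of these libraries.

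The target lists of the other STATs held at most 1 call each, beside 0.957% of all tested genes called. At that share, 0 calls in a list of this size says little about its targets. For STAT3, 1 of 18 tested genes rose, the acute-phase gene Saa3, at 20.6 ± 5.22 CPM with poly(I:C) and 1.01 ± 0.755 CPM with saline (adjusted p = 0.0430, edgeR), and the median log2 difference was −0.07. Fgl2, which encodes a prothrombinase, was 2.95-fold higher and missed the threshold (adjusted p = 0.0752). Lcn2, an iron-scavenging protein gene that is also a neutrophil marker, had 6288, 1175 and 1625 counts with poly(I:C) and 44353, 5213 and 5225 with saline (adjusted p = 0.222).

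For STAT5, 0 of 13 tested genes were called, where 0.957% of all tested genes were, with a median of 0.12. Ccnd2, a cyclin gene, stood at 50.2 ± 20.4 CPM with poly(I:C) and 28.2 ± 4.14 CPM with saline (adjusted p = 0.188), and Socs2 at 2.22 ± 0.489 CPM with poly(I:C) and 1.61 ± 0.145 CPM with saline (adjusted p = 0.387). For STAT6, 0 of 16 tested genes were called, with a median of −0.26. Mgl2, a lectin gene of alternatively activated macrophages, had 31.2 ± 2.95 CPM with poly(I:C) and 40.2 ± 3.78 CPM with saline, with the groups apart (adjusted p = 0.174). Chil3, a chitinase-like gene that monocytes and neutrophils also express, had 53755 of its counts in saline replicate 1 (adjusted p = 0.199), and Klf4, a transcription factor gene, had a log2 difference of −0.41 (adjusted p = 0.277).

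**Figure D5:**
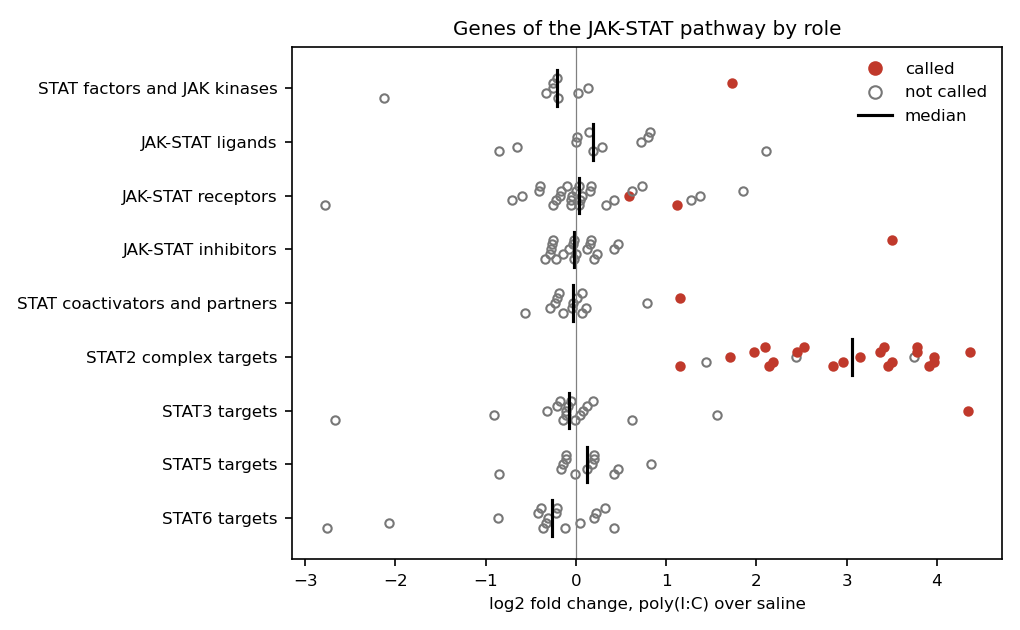
Each point is the log2 fold change of poly(I:C) over saline for a tested gene, in rows by role in the pathway; filled red points were called in edgeR, open grey points were not, and the black bar is the median of the row. The STAT2 complex targets lie to the right with a median of 3.06 and 21 of 24 called, while the medians of the other rows lie between −0.26 and 0.18.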

How the data were processed

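The authors deposited raw read counts per gene symbol for the 6 libraries. The submitters' processing notes name fastp, HISAT2, HTSeq and build GRCm39; tool versions and the annotation were not given. Per the labels' protocols, Smarter-amplified cDNA went into Nextera XT libraries, a kit that does not mark strand.

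All 6 libraries were fitted in edgeR 4.0.16 (R 4.3.3) with filterByExpr, TMM and the quasi-likelihood test, without covariates. A call is an adjusted p under 0.05 over 14727 genes, and the SE is |log2 fold change| divided by the root of F. The script was tested on simulated data. In the single simulated draw the share of false calls was above the nominal rate. A single draw does not set the rate in these data, but calls close to the threshold, such as Lifr and Saa3, may be less certain than their adjusted p states. DESeq2 1.42.0, limma 3.58.1, other scalings and filters, a block and left-out libraries were alternatives. No replicates looked like duplicates (chi-square per gene at least 22.3).

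Members and lists were chosen with earlier results of these data known. Named genes were the members; in each other list the called genes, up to 6 by smallest p, filled up to 3; and the 3 genes most correlated with a called member. Exon lengths and promoters are of GRCm38.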

Additional observations from a re-analysis of the deposited data

How the results depend on the processing

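Stat2 was called higher in each of the 15 alternatives, at log2 fold changes between 1.63 and 1.81 and an adjusted p of at most 0.0142. It was the only member called higher in any of them. In edgeR no other member was called under any scaling, filter, block or left-out library. Stat3 was called lower in DESeq2 (−0.28), where 566 of 14727 tested genes were. Stat4 was called lower in quality-weighted limma-voom (−2.57), where 1608 of 14727 tested genes were. Each of these methods gave 1 member lower. The sign of Tyk2 turned without poly(I:C) replicate 2 or saline replicate 1, over a range of −0.076 to 0.13 when a library was left out; no other member changed sign. Stat4 did not pass the stricter filter of 5 CPM in 3 libraries and has no value there. Leaving out libraries moved the difference in the Stat5a share between −0.40 and 1.79 percentage points.

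The count of called STAT2 complex targets, a check added after seeing the data, was 15 to 24 over the 15 alternatives. Over the same alternatives between 51 and 1268 of all tested genes were called higher.

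Counts over all genes moved more. Against 130 higher and 11 lower in edgeR, the totals were 577 and 566 in DESeq2 and 1268 and 1608 in limma-voom. No filter gave 18 lower. Leaving out saline replicate 1 and poly(I:C) replicate 1 together gave 355 higher and 214 lower. Leaving out a single library gave between 51 and 167 higher and between 0 and 20 lower; without poly(I:C) replicate 3 or saline replicate 3 the lower count was 0, with 1831 and 1913 genes at an unadjusted p under 0.05. The deviations of same-numbered libraries correlated at 0.293, 0.049 and 0.36, not all above 0.1, so the numbers were not taken as pairs. A replicate block gave 89 genes lower and changed no member's call; libraries did not all correlate best with their own number. The cause of these shifts was not tested. The Stat4 values rest on 4 to 27 counts with poly(I:C) and 20 to 121 with saline, in libraries of similar depth, so the spread between libraries limits them as well as the counts.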
